A study of Drosophila melanogaster with 6 samples.

Results

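The integrins and the proteins that link them to actin were examined in imaginal discs of the wing and of the haltere, the balancing organ behind the wing. Both discs are folded larval epithelia that become the adult appendages. The genes were chosen by name, as 3 integrin subunits (mys, mew and if) and 5 linker proteins (rhea, Vinc, Ilk, stck and parvin). All 8 had a row in the authors' deposited table, out of 7762 genes. None of them differed between the tissues at an adjusted p under 0.05, and the largest log2 fold change among them was 0.21 in size.

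The samples were 3 wing disc and 3 haltere disc libraries of Drosophila melanogaster. The larvae were wild type (strain Canton S) and in the wandering stage of L3, the last larval instar, and the sex of the larvae and the number of discs per sample are not given in the labels. The authors' deposited table gives 1 edgeR fold change, mean level, p-value and adjusted p-value (FDR) per gene, so no value of a single sample and no spread between replicates can be shown. Which tissue is on top of the fold change is stated neither in the table nor in the labels. Ubx, the homeotic gene that is active in the haltere disc, stood at -5.22 in the authors' deposited table, and positive values are therefore read here as higher in the wing disc. This direction is an assumption taken from Ubx, and every statement on which tissue is higher rests on it. The disc genes vg, nub and sd were well expressed, with mean levels over both tissues from 6.47 to 8.15 log2 CPM (read counts scaled to a common library total, log2) in the authors' deposited table. Their log2 fold changes in the authors' deposited table were 0.82 (edgeR p = 0.00372, FDR = 0.195), 0.81 (edgeR p = 0.00135, FDR = 0.0878) and 0.24 (edgeR p = 0.393, FDR = 1). All 3 are opposite in sign to Ubx, and none passed the FDR.

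Integrins are receptors of an alpha and a beta subunit that span the cell membrane and hold cells to the extracellular matrix. Talin binds the tail of the beta subunit and joins it to actin, vinculin strengthens that joint, and integrin-linked kinase, PINCH and parvin form a complex at the same sites. In the fly wing integrins bond the dorsal and ventral cell layers at their basal surfaces. Clones mutant for integrin genes give blisters where the layers come apart. The alpha-PS1 subunit is found mainly in the dorsal layer of the wing pouch and the alpha-PS2 subunit in the ventral layer, while the beta-PS subunit is common to both.

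The gene mys (myospheroid, FBgn0004657) encodes the beta-PS subunit and lies on chromosome X from 8061645 to 8070237, on the plus strand. The gene mew (multiple edematous wings, FBgn0004456) encodes alpha-PS1 and lies on X from 13214409 to 13258490, on the minus strand. The gene if (inflated, FBgn0001250), which encodes alpha-PS2, lies on X from 16752189 to 16783434, on the minus strand. Among the linkers, rhea (talin, FBgn0260442) lies on 3L from 8545001 to 8574409 and Ilk (FBgn0028427) on 3L from 21216901 to 21219240. The PINCH gene stck (steamer duck, FBgn0020249) lies on 3R from 8356978 to 8359964. Of the others, parvin (FBgn0052528) lies on X from 19746041 to 19748458 and Vinc (vinculin, FBgn0004397) on X from 2214347 to 2222567. Coordinates are from the Ensembl annotation of BDGP6, which has the coordinates of dm6, the build that the submitters' processing notes name.

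All 8 genes were above the table's median level in log2 CPM, which is not adjusted for gene length. Their mean levels over both tissues ran from 4.86 log2 CPM for Ilk to 7.54 log2 CPM for mys in the authors' deposited table, with 5 genes in the highest quartile of expression and 3 in the next. Long genes collect more reads, so levels were compared between genes as CPM per kb of annotated exon. Per kb, if was below the median of genes with an exon length, at a mean of 6.28 against 8.86. A level in each tissue was back-calculated from the mean level and the fold change of each gene, and has no error of its own. All levels are on a scale whose total includes reads assigned to no gene, so they serve for comparison and not as absolute shares of mRNA.

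The subunits stood in the order mys, mew, if in both tissues. The common beta subunit mys was at 41.0 CPM per kb in wing discs and 42.3 in haltere discs. The dorsal subunit mew was at 22.0 CPM per kb in wing discs and 25.5 in haltere discs. The ventral subunit if was at 6.32 CPM per kb in wing discs and 6.23 in haltere discs. The level of mew was thus 3.48 times that of if in wing discs and 4.09 times in haltere discs. The sum of mew and if came to 0.690 of the mys level in wing discs and 0.750 in haltere discs. With scb, the gene of a further alpha subunit described below, the alpha sum was above mys, at 1.34 times its level in wing discs and 1.36 times in haltere discs. The difference between the tissues in these ratios could not be tested, since the authors' deposited table holds no values of single samples. The exon length covers all annotated transcripts of a gene, so ratios between genes depend on that annotation.

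The linkers overlapped the range of the subunits. The PINCH gene stck was at 39.5 CPM per kb in wing discs and 38.2 in haltere discs, close to mys. Its partners in the complex were lower. The level of parvin was 17.0 CPM per kb in wing discs and 18.3 in haltere discs, and that of Ilk was 13.5 in wing discs and 12.5 in haltere discs. Averaged over the tissues, stck was at 2.98 times the level of Ilk and 2.20 times that of parvin per kb. The actin-binding linker Vinc was at 18.3 CPM per kb in wing discs and 19.7 in haltere discs. For talin, rhea was at 11.8 CPM per kb in wing discs and 12.2 in haltere discs, so mys exceeded it 3.47-fold per kb in wing discs and 3.46-fold in haltere discs. No error can be set on these levels, so whether neighbours in this order, such as mys and stck or rhea and Ilk, differ beyond replicate spread is unknown.

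**Figure D1:**
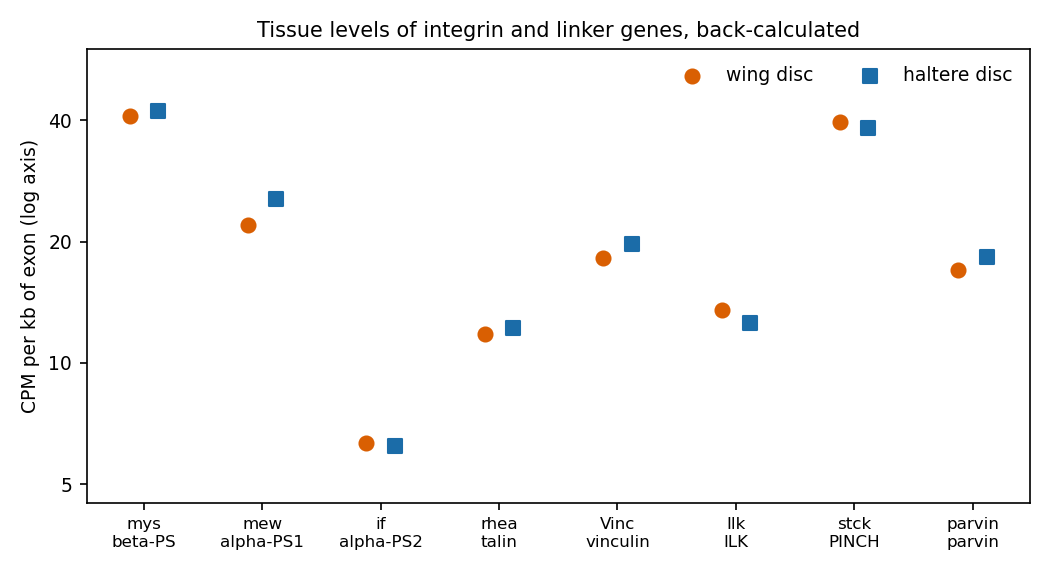
Level of each gene in CPM per kb of exon (log axis) in wing discs (circles) and haltere discs (squares), back-calculated from the mean level and fold change in the authors' deposited table, with 1 point per tissue and no error available. The 2 points of a gene lie close together, with the widest gap at mew (22.0 in wing discs and 25.5 in haltere discs), while the genes span from about 6.23 to 42.3.

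The question of the comparison was which genes are expressed differently between the wing disc and the haltere disc, whose appendages differ under the control of Ubx. For the integrins and linkers no difference was called. At an FDR under 0.05 (edgeR, Benjamini-Hochberg), 0 of the 8 genes passed in the authors' deposited table, where 1.34% of all genes did. At an unadjusted p under 0.05 the count was also 0 of 8, against 4.32% of all genes in the authors' deposited table. All 8 had an FDR of 1, as did 96.1% of all genes in the authors' deposited table. In whole discs a change in the number of cells of a type and in the RNA per cell cannot be told apart, and a gene that only shifted its domain within the disc, at the same total, would show no change.

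Among the subunits, mew had the largest fold change. It stood at -0.21 in the authors' deposited table (edgeR p = 0.405), a wing level of 0.862 of the haltere level. The authors' deposited table had mys at -0.044 (edgeR p = 0.865). The value of if was 0.021 in the authors' deposited table (edgeR p = 0.940), the smallest change of the 8. The dorsal and ventral alpha subunits thus had fold changes that differed by 0.23 on the log2 scale.

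Among the linkers, Vinc and Ilk lay farthest from 0, on opposite sides. The authors' deposited table had Vinc at -0.11 (edgeR p = 0.655) and Ilk at 0.11 (edgeR p = 0.718). The Ilk partners parvin and stck were at -0.10 and 0.047 in the authors' deposited table, with p-values of 0.675 and 0.841 (edgeR). The talin gene rhea was at -0.050 in the authors' deposited table (edgeR p = 0.880). Of the 8 genes, 7 had a p-value above 0.5, and 64.7% of all genes in the authors' deposited table did too.

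A p-value above the threshold does not show that the levels were equal, so the size of change that the data leave room for was estimated. A rough standard error was obtained as the fold change over the normal deviate that matches its p-value. It was 0.24 for stck, 0.26 for mys, 0.26 for mew and 0.33 for rhea on the log2 scale. The rough 95% interval of mys ran from -0.55 to 0.46 and that of mew from -0.72 to 0.29. For if it ran from -0.53 to 0.57, the 2 alpha subunits thus overlapping over most of their intervals. Among the linkers the rough interval was widest for rhea, from -0.70 to 0.60. The intervals of Vinc, from -0.60 to 0.37, and of parvin, from -0.60 to 0.39, were almost the same. For Ilk the interval ran from -0.49 to 0.71 and for stck from -0.41 to 0.51. All 8 intervals held 0, and over the 8 genes their bounds reached from -0.72 to 0.71. These are approximations, because the form of the authors' edgeR test is not given in the sources used here.

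For scale, 2725 genes had a mean level in the authors' deposited table that fell within the range of the 8 genes. The called genes among them numbered 29, and the smallest change among the called was 0.92 on the log2 scale, that of magu, which was named after its value was seen. In the same range 72.1% of genes changed by no more than mew did. The median size of change was 0.078 for the 8 genes and 0.13 for all genes of that range in the authors' deposited table. The integrin and linker genes are described by these values only, and the comparison is no test that they were more stable than other genes.

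**Figure D2:**
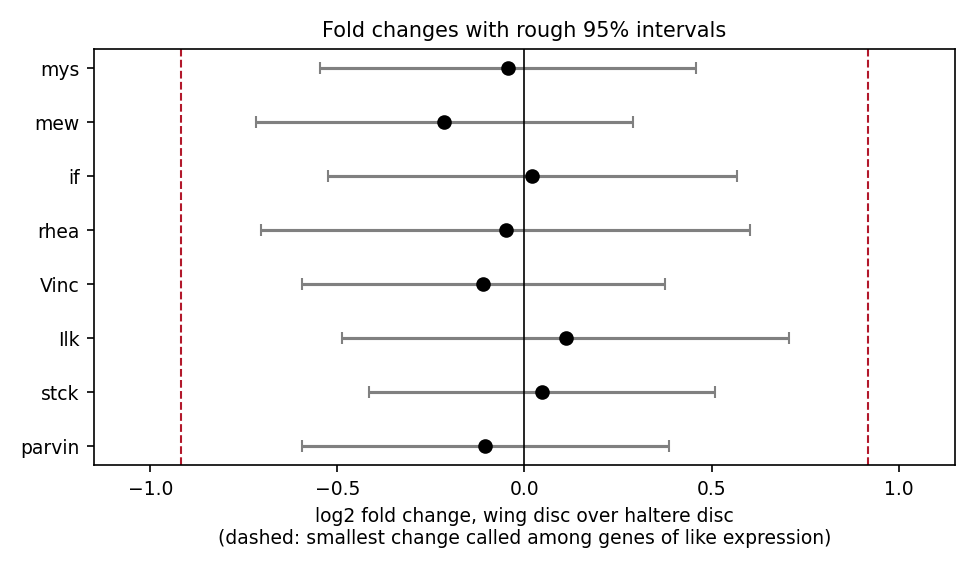
Log2 fold change of each gene, wing disc over haltere disc (points), with rough 95% intervals back-calculated from the authors' p-values (bars). The dashed lines mark 0.92 in either direction, the smallest change called among the 2725 genes of like expression, and every interval crosses 0 and ends inside them.

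**Figure D3:**
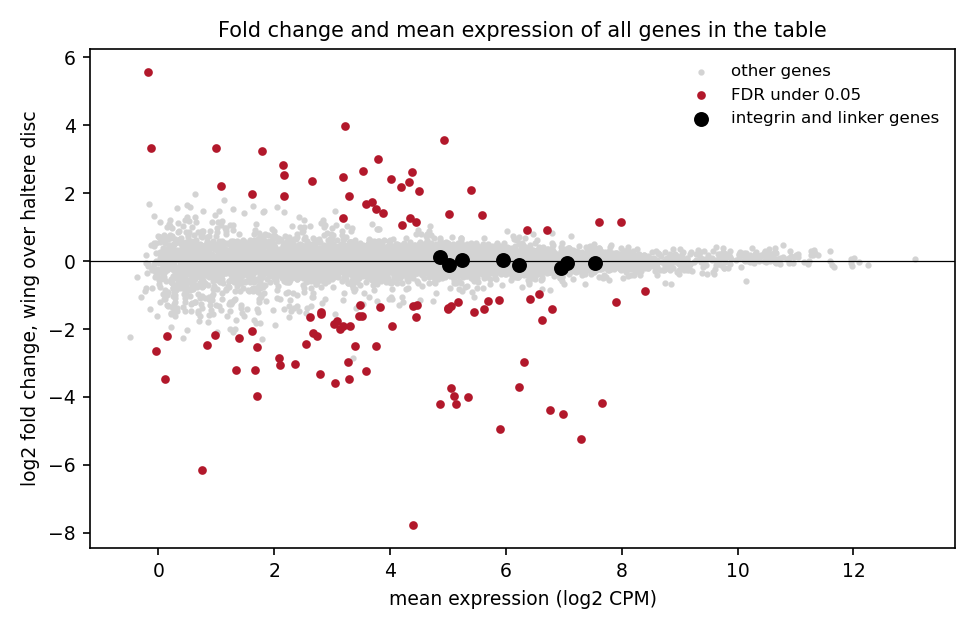
Log2 fold change, wing disc over haltere disc, against mean expression in log2 CPM for all 7762 genes in that comparison, with the 104 called genes in red and the 8 integrin and linker genes in black. The black points lie along 0 between 4.86 and 7.54 log2 CPM.

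Of the 8 genes, 7 kept their sign when fold changes were centred on the median of all genes or of the same class of chromosome. As deposited, 5 of the 8 were below 0 in the authors' deposited table, and 4 of those 5 were among the 5 X-linked genes (mys, mew, if, parvin and Vinc). X-linked genes as a whole had a median log2 fold change of -0.048 and autosomal genes of 0.0093 in the authors' deposited table. The exception to the kept signs was mys, whose value of -0.044 is smaller in size than that X-linked shift, so no direction is given for it. A kept sign gives no direction for the other genes either, since the rough intervals of all 8 held 0. The value of mew was -0.17 relative to the X-linked median. The sex of the larvae is not given, and its part in the X-linked median was not tested.

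Overlap with other annotated genes was examined, since reads in shared bases can be assigned to either gene or to none. No annotated gene overlapped mys, if, Vinc or Ilk. The exons of parvin shared 145 bases with Alr on the same strand and 269 bases with the antisense RNA asRNA:CR45501, which is 7.88% and 14.6% of the parvin exons. The exons of mew shared 107 bases with CG15742. The exons of stck shared 7 bases with Veneno and those of rhea 3 bases with CG6638, both on the opposite strand. The counting mode and strand setting are not given in the sources used here, so the parvin value is the least certain of the 8 on this account.

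The wider adhesion machinery was then read from 4 lists with 33 genes, of which 30 were matched to a row by symbol or unique synonym. The unmatched genes may stand in the table under an older name, since not all of its gene names could be matched. The lists hold the other integrin subunits, the integrin ligands, basement membrane genes and other proteins of adhesion sites. At an FDR under 0.05 (edgeR), 0 of the 30 were higher and 2 were lower in wing discs in the authors' deposited table, namely Tsp and Zasp66, against 0.464% and 0.876% of all genes. In the authors' deposited table the median log2 fold change was -0.12 over the 30 and 0.00047 over all genes. Among the 30, 20 changed by no more than mew, as did 61.1% of all genes.

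The other integrin subunits had 3 rows, and 0 were called at an FDR or an unadjusted p under 0.05 (edgeR). In the authors' deposited table the alpha subunit gene ItgalphaPS4 was highest at 0.46 (edgeR p = 0.503), and ItgalphaPS5 was lowest at -0.49 (edgeR p = 0.310). Both were scarce, at 0.80 and 2.50 log2 CPM in the authors' deposited table. The remaining subunit gene with a row, scb, encodes alpha-PS3 and was at 0.052 (edgeR p = 0.871) in the authors' deposited table. Its mean level of 26.2 CPM per kb was above those of mew and if, at 23.7 and 6.28. This gene was named after its values were seen. The beta subunit gene Itgbn had no matched row.

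Among the 6 integrin ligands, 5 had negative values and 1 was called, where 1.34% of all genes were called. The gene Tsp encodes thrombospondin, a ligand of the alpha-PS2 integrin at sites where muscle attaches to tendon cells. It was lower in wing discs, with a log2 fold change of -1.13 in the authors' deposited table (edgeR FDR = 0.0014), a wing level of 0.458 of the haltere level. It ranked 52 by p-value among all genes of the authors' deposited table. The highest value belonged to wb (wing blister), a laminin alpha chain gene, at 0.46 (edgeR p = 0.220) in the authors' deposited table. The ligand Tig (tiggrin), known from muscle attachments, was at -0.87 (edgeR p = 0.0245, FDR = 0.767) in the authors' deposited table, and was named after its values were seen. The receptor subunit gene if, whose protein binds both, was at 0.021 in the same table.

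Among the 5 basement membrane genes with a row, 0 were called, and 1 had an unadjusted p under 0.05 (edgeR). The shares over all genes were 1.34% and 4.32%. BM-40-SPARC, which encodes a collagen-binding protein, was highest at 0.67 (edgeR p = 0.0253, FDR = 0.774), and Cg25C, a collagen IV chain gene, was lowest at -0.063 (edgeR p = 0.851), both in the authors' deposited table. The gene Ndg (nidogen) had no matched row.

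The other adhesion-site proteins, which include kindlins, paxillin, focal adhesion kinase, Src kinases, tensin and zyxin, had 16 rows. Of these, 1 was called in the authors' deposited table, against 1.34% of all genes. The log2 fold change was under 0.25 in size for 14 of the 16, and for 68.0% of all genes. Zasp66 encodes a protein of muscle Z-discs and attachments and was lower in wing discs at -1.77 (edgeR FDR = 0.0176) in the authors' deposited table. The highest value was that of Zyx (zyxin), at 0.17 (edgeR p = 0.514) in the authors' deposited table. The small GTPase gene Rap1 had no matched row.

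Markers of contractile muscle moved in the same direction as Tsp and Zasp66. Of 10 such genes, 7 were lower in wing discs at an FDR under 0.05 (edgeR), against 0.876% of all genes in the authors' deposited table. All 10 were negative. Their summed level, back-calculated, was 121 CPM in wing discs and 276 CPM in haltere discs. Several of these markers were scarce. The lowest mean level was 2.81 log2 CPM, against a median of 4.39 over all genes. Per kb of exon they ran from 0.33 CPM for bt to 25.9 CPM for Mlc2. The 8 integrin and linker genes summed to 663 CPM in wing discs and 695 CPM in haltere discs. Of 6 markers of adult muscle precursors, all 6 were positive in the authors' deposited table. At an FDR under 0.05 (edgeR), 2 (twi and Him) were higher in wing discs and 0 were lower, against 0.464% and 0.876% of all genes. Both called genes were scarce, at a mean of 2.17 log2 CPM each, in the lowest quartile of expression. The 4 tendon cell markers had 0 calls in the authors' deposited table (edgeR, also 0 at an unadjusted p under 0.05). They summed to 164 CPM in wing discs and 166 CPM in haltere discs. These sums rest mainly on how, at a mean level of 6.80 log2 CPM, while sr was at 2.19 log2 CPM. The sums therefore say little on the number of tendon cells. The part of these cell types in the values of Tsp and Zasp66 was not tested.

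**Figure D4:**
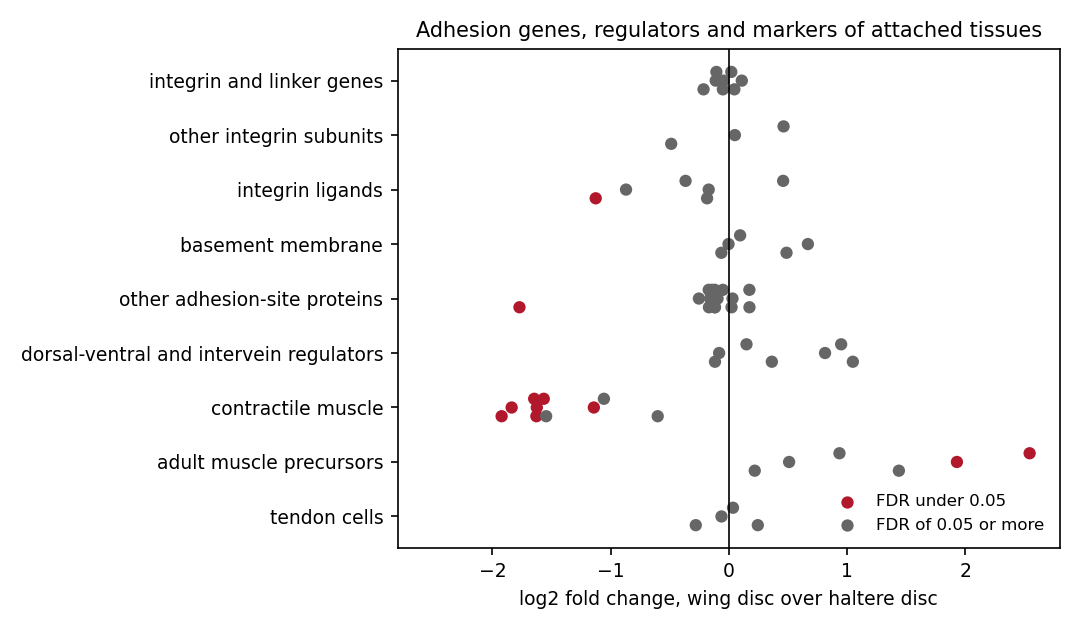
Log2 fold change, wing disc over haltere disc, of the 8 integrin and linker genes and of 8 further lists (other adhesion genes, regulators, muscle and tendon markers), 1 point per gene, red where the authors' FDR is under 0.05; vertical offsets within a list only separate the points. In the top row no value is more than 0.21 from 0, Tsp and Zasp66 stand out on the left, and contractile muscle markers lie left of 0 and adult muscle precursor markers right of it.

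Genes that pattern the layers that integrins bond were read last. The 7 listed regulators, from the dorsal selector system and the intervein and vein programme, had 0 calls at an FDR under 0.05 (edgeR). At an unadjusted p under 0.05 they had 3. Of all genes in the authors' deposited table, 1.34% passed the FDR and 4.32% the unadjusted p. The vein-repressing gene net was highest at 1.05 (edgeR p = 0.00472, FDR = 0.235), and Chi, the cofactor of Apterous, was lowest at -0.12 (edgeR p = 0.617), both in the authors' deposited table. The other genes of the dorsal system in the list were mixed in sign, none was called, and they ran from -0.082 for ap, the dorsal selector, to 0.95 for Bx (edgeR p = 0.0131, FDR = 0.495), its modulator, with fng at 0.36 and Ser at 0.15, in the authors' deposited table. These 4 were named after their values were seen, as was bs (blistered), the remaining gene of the list. It was at 0.81 (edgeR p = 0.00582, FDR = 0.271) in the authors' deposited table. The 3 genes with an unadjusted p under 0.05 (edgeR) were net, Bx and bs, all with positive values.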

How the data were processed

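Per the labels, mRNA libraries were made with a directional kit, with 3 wing disc and 3 haltere disc samples. HISAT2, HTSeq and edgeR are named in the submitters' processing notes with build dm6. Tool versions, annotation, filters and the form of the edgeR fit are not given in the sources used here. The deposited table holds, per the file headers, a log2 fold change, a mean log2 CPM, a p-value and an FDR per row. Of its 7767 rows, 5 are summary lines of the read counter, with 43.3% of the CPM total, and were left out of gene counts. Library depth is unknown, and no test across samples could be run. The labels do not say whether replicates were separate dissections, but the series text calls them independent and biological.

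The p-values deposited by the authors, adjusted again by Benjamini-Hochberg over all rows, gave their FDR to within 6.24e-06. Computed here were exon lengths (Ensembl release 115, 7658 genes matched by symbol or unique synonym), tissue levels and rough standard errors, with Python 3.11.15, scipy 1.17.1 and pandas 2.3.3. The arithmetic of the adjustment and standard error was checked on simulated data with normal errors, which does not show how well it approximates the authors' edgeR test. The tissue levels assume that the mean CPM is the average of both tissues. Genes and lists were chosen with earlier results of these data known. The naming rule covered the 8 genes, Ubx and, in the adhesion and regulator lists, each called gene and the highest and lowest value. The other genes named are markers, genes with no matched row, genes that overlap the 8, or genes picked after their values were seen. The number of unused columns with values of single samples was 0.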

Additional observations from a re-analysis of the deposited data

How the results depend on the processing

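The count of integrin and linker genes called was 0 under each alternative that the table allows, namely an FDR under 0.01, an FDR under 0.1, an unadjusted p under 0.05, a Bonferroni adjustment, removal of the summary lines, a minimum mean of 1 log2 CPM and a log2 change of at least 1. The lowest of the 8 unadjusted p-values was 0.405. All these alternatives act on the same deposited p-values. Over all genes the count of 104 became 335 at an unadjusted p under 0.05 and 50 with Bonferroni. In the adhesion lists the 2 calls became 4 at an unadjusted p under 0.05, 1 at an FDR under 0.01 and 0 with Bonferroni. Looser and stricter thresholds change such counts by construction. Centring on the median of all genes, or of X-linked or autosomal genes, moved no value by more than 0.048, and 1 of the 8 genes (mys) changed sign. No paired analysis was possible because the table holds no values per sample, and for the same reason the DESeq2 fit and the fits that leave out a replicate were not run. Whether 1 library sets a value is therefore unknown.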

Other observations

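Markers of other cell types that a dissected disc can carry were read beside the adhesion genes. Of 6 fat body genes, 5 were lower in wing discs and 0 higher at an FDR under 0.05 (edgeR) in the authors' deposited table. Among all genes the shares were 0.876% lower and 0.464% higher. The back-calculated sum of the 6 was 52.1 CPM in wing discs and 1037 CPM in haltere discs. Of 7 hemocyte genes, 0 were called in the authors' deposited table (edgeR, also 0 at an unadjusted p under 0.05) and all 7 were negative, with sums of 81.3 CPM in wing discs and 105 CPM in haltere discs. Of the 5 basement membrane genes with a row, 3 were positive and 2 negative in the authors' deposited table. Of 3 tracheal genes, 0 were called in the authors' deposited table (edgeR, 1 at an unadjusted p under 0.05), 2 were positive and 1 was negative. The part of these cells in any adhesion gene's value was not tested.

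The read counter's line for reads that fit more than 1 gene held 1.96% of the CPM total, with a log2 fold change of 0.018 and a p-value of 0.938 (edgeR) in the authors' deposited table. Such reads bear on parvin and mew, whose exons share bases with other genes. The other summary lines were not all as close to 0. Reads that fit no gene held 9.47% and stood at 0.65 (edgeR p = 0.0310, FDR = 0.883) in the authors' deposited table. Reads aligned to more than 1 place held 10.2%, with a log2 fold change of 0.29. Reads of low alignment quality held 18.1%, at 0.10, and unaligned reads 3.61%, at 0.013. The bearing of these lines on the values of genes was not tested.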
